A study of Mus musculus with 7 samples.

Results

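The mRNA levels of 10 genes that carry cobalamin from blood to its enzymes were compared in mouse primary hepatocytes transfected with a miR-709 mimic or with the control miRNA Cel-239b. The genes are Tcn2, Lmbrd1, Abcd4, Mmachc, Mmadhc, Mmaa, Mmab, Mmut (Mut in older annotation), Mtr and Mtrr. Every probe set annotated to one of these symbols and to no other gene was taken, which gave 10 probe sets for 10 genes, out of 19938 genes with a symbol of their own on the array. Mmachc was chosen because its signal was already known to be lower after miR-709, so its values are given as a description without a test. The other 9 genes were chosen by their place in the pathway, with earlier results of these data known.

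There were 4 miR-709 arrays (A, B, C and D) and 3 Cel-239b arrays (B, C and D). The cells were hepatocytes from male C57BL/6J mice, freed with collagenase and separated from other liver cells on a Percoll gradient; the age of the mice is not given in the sources used here. Both groups received 1 µg of miRNA with Metafectene-Pro and were harvested 24 hours later, so that dose, reagent and time are shared. The labels do not say whether both groups came from the same cell isolation or batch. The mimic raises a miRNA that these cells already make. Values are log2 signals from Affymetrix Mouse Gene 1.0 ST arrays, summarised and normalized by the RMA method, and a difference of 1 on this scale is a doubling. Nothing in the labels says whether the arrays of a group came from separate mice, so the p-values measure the spread between these arrays only.

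Cobalamin is a cobalt-containing vitamin that the liver stores. In blood it travels on transcobalamin (Tcn2), enters cells by endocytosis and leaves the lysosome through Lmbrd1 and Abcd4. In the cytosol Mmachc strips the upper ligand from the cobalt, and Mmadhc directs the product either to methionine synthase (Mtr), which uses methylcobalamin to remake methionine from homocysteine, or to mitochondria. There Mmab makes adenosylcobalamin, Mmaa loads and guards it, and Mmut, methylmalonyl-CoA mutase, uses it to pass carbon from propionate, valine and other sources to succinyl-CoA.

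miR-709-treated cells had less Mmachc mRNA and less mRNA of both enzymes that need cobalamin, Mmut and Mtr, than Cel-239b-treated cells. The Mmachc signal was 30.5% of that in Cel-239b-treated cells, that of Mmut was 56.0% and that of Mtr 79.5%. None of the carrier, lysosomal, sorting, cofactor-making or reactivating genes passed the test. In limma's test across all 19938 genes, with a Benjamini-Hochberg adjusted p below 0.05 as the threshold for a call, 2 of the 9 genes other than Mmachc were called lower and 0 were called higher, while 1.47% of all genes were called lower (293 genes) and 1.81% higher (361 genes). The genes called were Mmut and Mtr. Without any 1 array other than miR-709 A the call of Mtr was lost, which left 1 of 9, and over all genes 181 to 244 were called lower and 180 to 294 higher when each of the 7 arrays was left out in turn. With Mmachc the count called lower was 3 of 10, which includes the gene that was listed for its decrease. The median log2 fold change, miR-709 minus Cel-239b, was 0.05 over the 10 genes and 0.01 over all genes tested. The 7 genes not called had log2 fold changes between -0.12 and 0.22 and adjusted p between 0.144 and 0.858 (limma); 6 of them lay above 0 and 1 below. By the methods' t-test, a 1-way analysis of the log2 signals of both groups with an unadjusted threshold of 0.01, 2 of the 9 genes other than Mmachc were lower (Mmut and Mtr) and 1 was higher (Lmbrd1), against 1.90% of all genes lower and 2.81% higher. After Benjamini-Hochberg adjustment of that test, as run here, Mmut passed, while Mtr, Lmbrd1 and Mmachc did not. Of all genes 0.567% passed in each direction. The paper prints a smaller p for Mmachc than this test gave. It also counted more genes under 0.01 in each direction than the 378 lower and 560 higher here. Those counts are not on a like base. The paper describes its arrays as comparing about as many genes as there are probe sets, 28853. Here 1 probe set was kept for each of 19938 genes. How far the base accounts for the counts was not tested. The cause of the difference in p was not tested, nor was whether Mmachc passes adjustment in the authors' own calculation. In bulk RNA, fewer cells expressing a gene and less RNA per cell cannot be told apart.

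**Figure D1:**
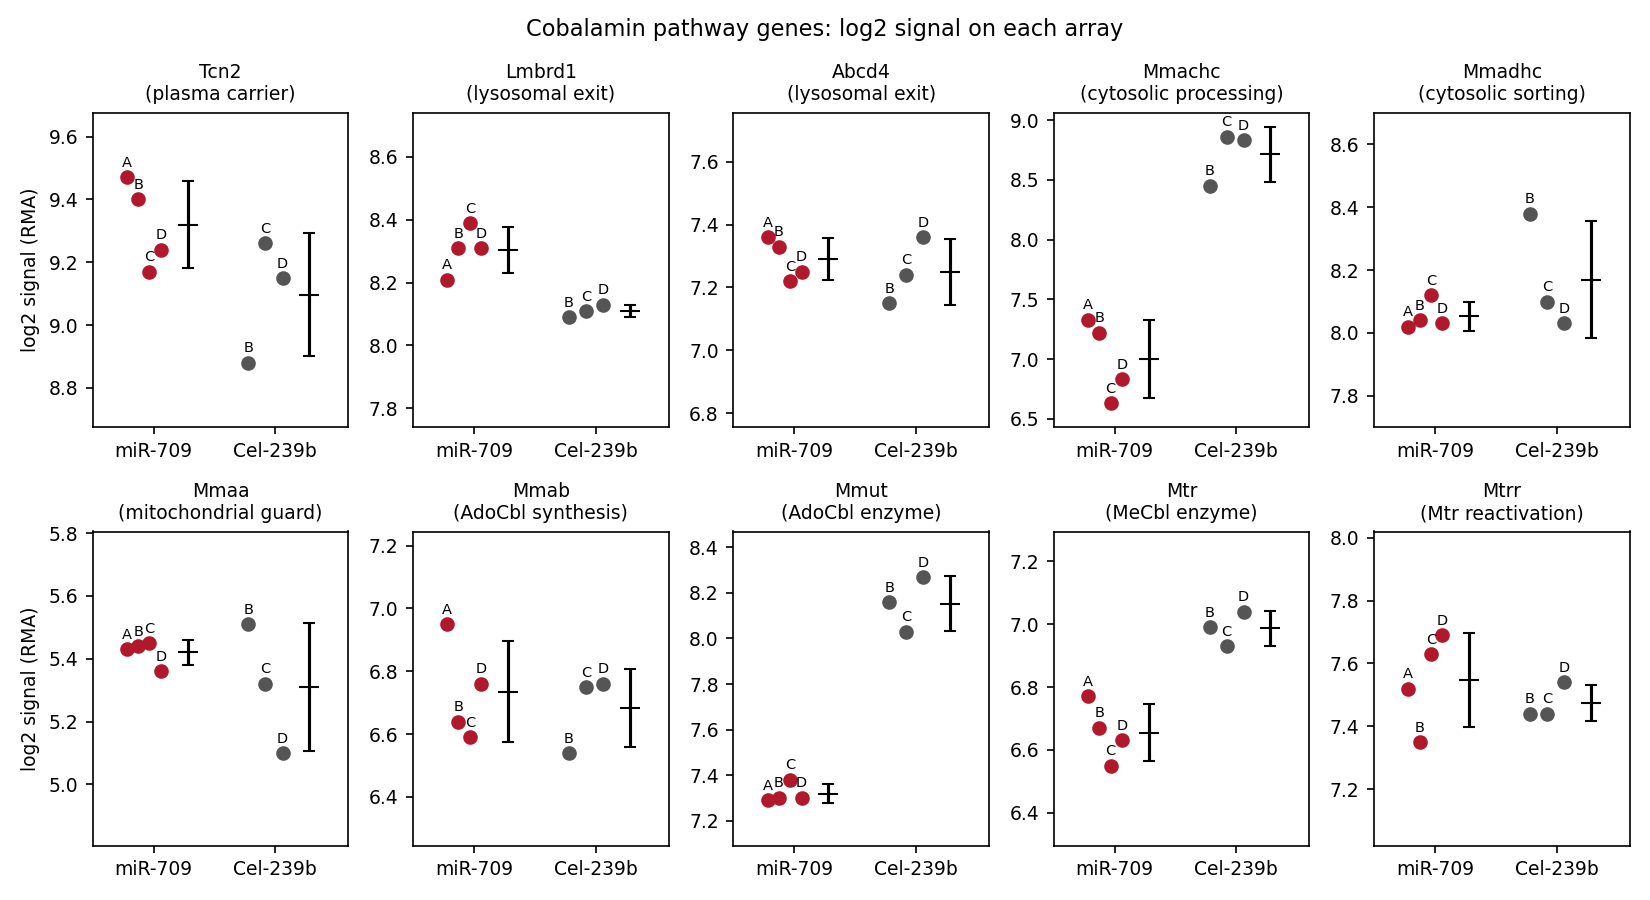
log2 RMA signal (vertical axes) of the 10 cobalamin genes on each array, with 4 miR-709 arrays in red and 3 Cel-239b arrays in grey, letters naming the arrays; the horizontal mark is the group mean and the bar its SD. Each panel has its own axis, whose span is wider for Mmachc and Mmut. The arrays of the groups do not overlap for Mmachc, Mmut and Mtr, which were lower in miR-709-treated cells, and for Lmbrd1, whose miR-709 arrays lay higher.

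Of the genes that bring cobalamin into the cytosol, none passed the test. Tcn2, the plasma carrier, had signals of 9.47, 9.40, 9.17 and 9.24 on miR-709 arrays A to D, against 8.88, 9.26 and 9.15 on Cel-239b arrays B to D. The groups overlapped, with miR-709 C and D between the higher Cel-239b arrays. Its log2 fold change was 0.22 (SE 0.10, 95% interval -0.01 to 0.46, adjusted p = 0.36, limma).

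Lmbrd1, a lysosomal membrane protein needed for cobalamin to leave the lysosome, had signals of 8.21, 8.31, 8.39 and 8.31 in miR-709-treated cells, against 8.09, 8.11 and 8.13 in Cel-239b-treated cells. All 4 miR-709 arrays lay above all 3 Cel-239b arrays, which differed among themselves by little. The difference was small, 0.20 on the log2 scale (SE 0.06, 95% interval 0.06 to 0.33), and its adjusted p over all genes was 0.144 in limma, above the threshold. Groups whose arrays did not overlap were common on these arrays, at 7.44% of all genes with miR-709 higher and 4.91% with miR-709 lower. Among the 10 genes 1 (Lmbrd1) did not overlap with miR-709 higher and 3 (Mmachc, Mmut and Mtr) with miR-709 lower.

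Abcd4, the ABC transporter that acts with Lmbrd1 at the lysosome, had signals of 7.36, 7.33, 7.22 and 7.25 in miR-709-treated cells, against 7.15, 7.24 and 7.36 in Cel-239b-treated cells. The arrays were interleaved. Its difference was 0.04 (SE 0.07, 95% interval -0.11 to 0.19, adjusted p = 0.845, limma), and without Cel-239b array B it was -0.01.

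Mmachc stood apart from the other 9 genes in the size of its difference. Its signals were 7.33, 7.22, 6.63 and 6.83 on miR-709 arrays A to D, with a mean of 7.0 ± 0.3 (SD, n = 4), and 8.45, 8.86 and 8.83 on Cel-239b arrays B to D, with a mean of 8.7 ± 0.2 (SD, n = 3). The highest miR-709 array lay more than 1 log2 unit below the lowest Cel-239b array. The log2 fold change of -1.71 (SE 0.17) is a 3.27-fold lower signal and was the 6th most negative of the 19938 genes. It ran between -1.84 and -1.44 over the 20 alternative ways of processing and choosing arrays that were tried. Within the miR-709 group, C and D had lower signals than A and B.

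The region just before the Mmachc start site is shown because the gene's regulation is known from human and mouse work to involve the DNA-binding proteins ZNF143 and THAP11 with the cofactor HCFC1. That of Mtr is shown because, of the 6 genes with a window, only Mmachc and Mtr matched a loosened spelling of the motif. RefSeq's windows of 300 bases around gene starts (GRCm38.p6) covered 6 of the 10 genes: Lmbrd1, Mmaa, Mmab, Mmachc, Mtr and Mtrr. Mmut had no window and was not searched. The motif ACTACAANTCC, of the kind these proteins bind, was looked for on both strands and was in 331 of 32851 windows (1.01%) and in none of the 6 genes. A looser spelling, ACTACANNTCC, which takes in every match of the stricter one, was chosen after that result was seen. It was in 649 windows (1.98%) and in those of Mmachc and Mtr. The 250 bases before each start are printed 5′ to 3′ on the gene's own strand, the minus strand in both cases, from chr4:116708386-116708635 for Mmachc and chr13:12258114-12258363 for Mtr, with the match in capitals.
Mmachc: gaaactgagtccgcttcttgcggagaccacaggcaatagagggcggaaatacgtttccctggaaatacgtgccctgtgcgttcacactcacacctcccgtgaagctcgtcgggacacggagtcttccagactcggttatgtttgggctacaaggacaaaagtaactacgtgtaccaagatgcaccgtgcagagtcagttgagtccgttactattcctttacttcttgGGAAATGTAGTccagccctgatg
Mtr: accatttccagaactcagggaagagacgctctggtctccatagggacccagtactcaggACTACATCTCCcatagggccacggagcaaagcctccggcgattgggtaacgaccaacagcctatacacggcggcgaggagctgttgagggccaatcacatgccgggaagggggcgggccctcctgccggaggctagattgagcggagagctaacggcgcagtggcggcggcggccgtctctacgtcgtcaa
The Mmachc match reads GGAAATGTAGT on the gene's strand, which is ACTACATTTCC on the other, and ends 12 bases before the start. The Mtr match, ACTACATCTCC, ends 180 bases before it. A match of letters is a description of these windows and no measurement of binding.

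The gene on the other strand next to Mmachc gave no such difference. Ccdc163 starts so close to Mmachc that the RefSeq windows of both genes share 291 of their 300 bases. Its signals were 5.74, 5.38, 5.69 and 5.81 in miR-709-treated cells, against 5.36, 5.56 and 5.69 in Cel-239b-treated cells. These values lay close to the array medians of 5.04 to 5.07 over all probe sets, where a decrease would be hard to see. The groups overlapped, and the difference was 0.12 (SE 0.11, 95% interval -0.14 to 0.37, adjusted p = 0.689, limma). Prdx1, a peroxide-reducing enzyme encoded on the other side of Mmachc, had signals of 10.93, 10.98, 11.16 and 11.16 in miR-709-treated cells, against 11.14, 10.90 and 11.01 in Cel-239b-treated cells. Its arrays were interleaved, and its probe sets gave differences of 0.04 (SE 0.08, adjusted p = 0.873, limma) for the brighter and 0.03 for the other.

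The genes between Mmachc and the enzymes did not pass the test. Mmadhc, which works with Mmachc and decides between the cytosolic and mitochondrial routes, had signals of 8.02, 8.04, 8.12 and 8.03 in miR-709-treated cells, against 8.38, 8.10 and 8.03 in Cel-239b-treated cells. Cel-239b array B was the high one, and the other Cel-239b arrays lay among those of miR-709. The difference was -0.12 (SE 0.08, 95% interval -0.31 to 0.07, adjusted p = 0.576, limma).

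Mmaa, the mitochondrial GTPase that hands adenosylcobalamin to Mmut and protects it there, had signals of 5.43, 5.44, 5.45 and 5.36 in miR-709-treated cells, against 5.51, 5.32 and 5.10 in Cel-239b-treated cells. These values lay close to the array medians of 5.04 to 5.07 over all probe sets, and the miR-709 arrays fell within the spread of the Cel-239b arrays. The difference was 0.11 (SE 0.09, 95% interval -0.09 to 0.31, adjusted p = 0.632, limma).

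Mmab, the adenosyltransferase that makes adenosylcobalamin, had signals of 6.95, 6.64, 6.59 and 6.76 in miR-709-treated cells, against 6.54, 6.75 and 6.76 in Cel-239b-treated cells. Apart from miR-709 array A, all arrays lay within the same narrow band. The difference was 0.05 (SE 0.10, 95% interval -0.16 to 0.27, adjusted p = 0.858, limma), and it was -0.02 without miR-709 A or without Cel-239b B.

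Mmut, the mitochondrial mutase at the end of the adenosylcobalamin branch, was lower after miR-709. Its signals were 7.29, 7.30, 7.38 and 7.30 on miR-709 arrays A to D, with a mean of 7.32 ± 0.04 (SD, n = 4), and 8.16, 8.03 and 8.27 on Cel-239b arrays B to D, with a mean of 8.15 ± 0.12 (SD, n = 3). The 4 miR-709 arrays were nearly level, and all of them lay far below the lowest Cel-239b array. The log2 fold change was -0.84 (SE 0.07, 95% interval -0.99 to -0.68, adjusted p = 2.8e-04, limma), a 1.78-fold lower signal and the 62nd most negative of all genes. The call held in 20 of 20 alternatives, with adjusted p from 6.2e-05 to 0.0199 and log2 fold changes from -0.90 to -0.78.

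Mtr, methionine synthase, was lower by less. Its signals were 6.77, 6.67, 6.55 and 6.63 on miR-709 arrays A to D, with a mean of 6.66 ± 0.09 (SD, n = 4), and 6.99, 6.93 and 7.04 on Cel-239b arrays B to D, with a mean of 6.99 ± 0.06 (SD, n = 3). All miR-709 arrays lay below all Cel-239b arrays. The log2 fold change was -0.33 (SE 0.07, 95% interval -0.48 to -0.18, adjusted p = 0.0282, limma), the 400th most negative of all genes. The direction was the same in 20 of 20 alternatives, but the call held in 11. It was lost with the methods' t-test (adjusted p = 0.109), with the array letter as a block (adjusted p = 0.0569, limma) and when any 1 array other than miR-709 A was left out. The adjusted p was then 0.0763 without miR-709 B, 0.0749 without miR-709 C, 0.088 without miR-709 D, 0.0938 without Cel-239b B, 0.0704 without Cel-239b C and 0.0815 without Cel-239b D (limma).

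Mtrr, the reductase that brings oxidised Mtr back to its active form, did not pass the test. It had signals of 7.52, 7.35, 7.63 and 7.69 in miR-709-treated cells, against 7.44, 7.44 and 7.54 in Cel-239b-treated cells. The miR-709 arrays spread to both sides of the Cel-239b arrays, with C and D highest. The difference was 0.07 (SE 0.08, 95% interval -0.12 to 0.26, adjusted p = 0.745, limma).

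**Figure D2:**
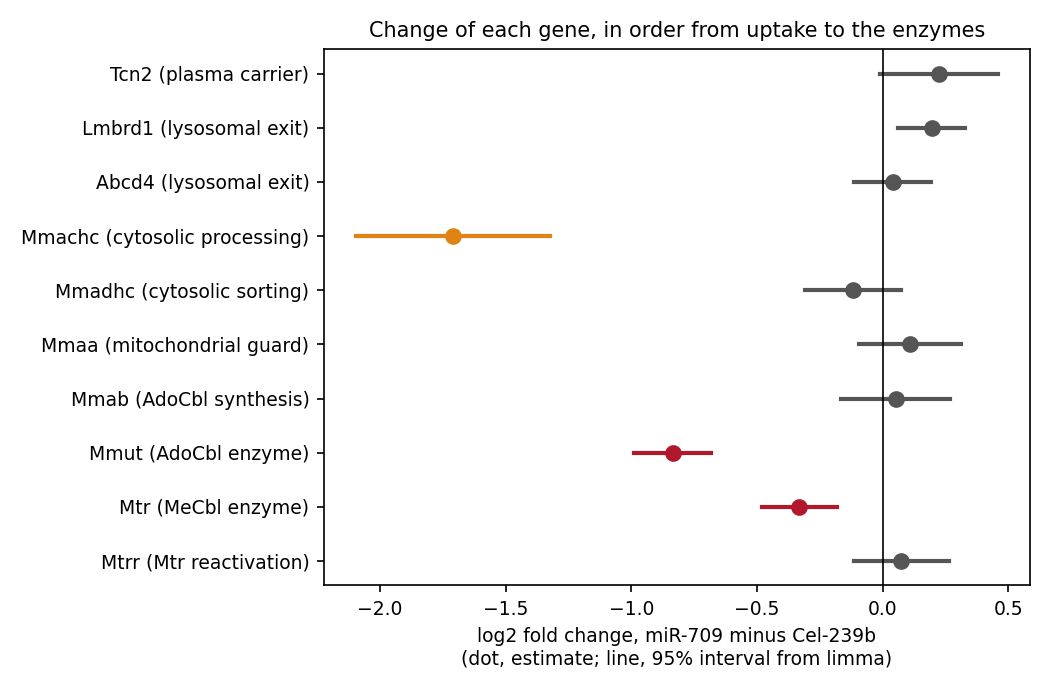
log2 fold change, miR-709 minus Cel-239b (horizontal axis), of the 10 genes from uptake at the top to the enzymes at the bottom; dots are limma estimates over 4 miR-709 and 3 Cel-239b arrays and lines their 95% intervals. Mmachc (orange) was listed for its decrease and is shown as a description; Mmut and Mtr (red) were called at an adjusted p below 0.05 over all genes, and the 7 genes in grey lay between -0.12 and 0.22.

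The miR-709 arrays differed among themselves in genes of the interferon response, and these values stand beside the 3 lower genes. Over 11 tested interferon genes the mean signal, relative to the Cel-239b mean, was -0.14, -0.08, 1.05 and 1.03 on miR-709 A to D, against -0.22, -0.04 and 0.26 on Cel-239b B to D. None of the 11 genes was called between the groups by limma, 2 had an unadjusted p under 0.05 (15.0% of all genes did), and 0 passed the methods' t-test at its unadjusted threshold. Mmachc deviated from its Cel-239b mean by -1.38, -1.49, -2.08 and -1.88 on miR-709 A to D. Mmut deviated by -0.86, -0.85, -0.77 and -0.85 on the same arrays, and Mtr by -0.22, -0.32, -0.44 and -0.36. Mmachc and Mtr were thus lowest on the arrays with the highest interferon signal, and Mmut was not. Without miR-709 C and D the log2 fold change was -1.44 for Mmachc, -0.86 for Mmut (adjusted p = 0.0199, limma) and -0.27 for Mtr (adjusted p = 0.2, limma). The part of the interferon response in the Mmachc and Mtr values was not tested.

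**Figure D3:**
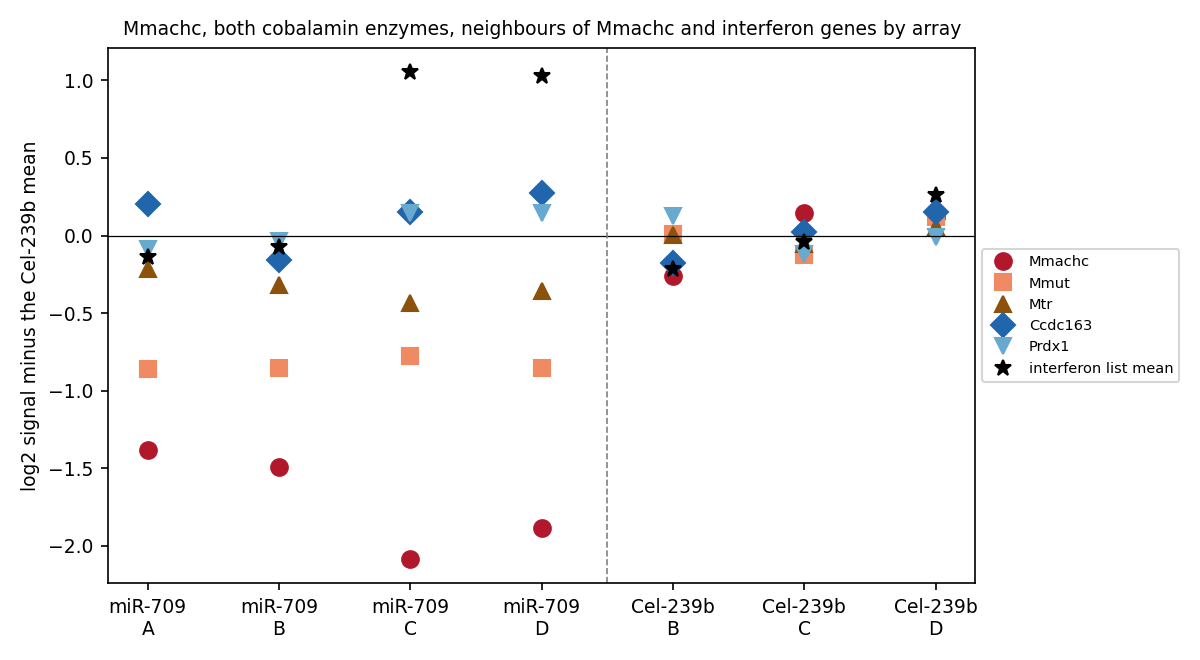
log2 signal minus the Cel-239b mean of the same gene (vertical axis) on the 4 miR-709 and 3 Cel-239b arrays, for Mmachc, Mmut, Mtr, the neighbouring genes Ccdc163 and Prdx1, and the mean of 11 interferon genes. Mmachc lay between -1.38 and -2.08 and Mmut between -0.77 and -0.86 on all miR-709 arrays, while the interferon mean was 1.05 and 1.03 on C and D only.

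The genes around the pathway were taken by role in 4 lists, and few of them were called. Of the 9 genes of uptake, carriage and export, 0 were called in either direction by limma, 1 had an unadjusted p under 0.05, against 15.0% of all genes, and 0 passed the methods' t-test at its unadjusted threshold; their median log2 fold change was -0.00. Only 4 of the 9 averaged above 6 on the log2 scale and the lowest mean was 3.56, a low signal on these arrays, so the differences of the dim genes say little. The gene under 0.05 was Abcc1, an exporter known to release cobalamin from cells, which had signals of 6.18, 6.24, 6.74 and 7.01 in miR-709-treated cells, against 7.12, 7.01 and 7.11 in Cel-239b-treated cells. Arrays A and B were the low ones, while C and D, the arrays with the high interferon mean, were higher and D reached the Cel-239b level. Its log2 fold change was -0.54 (SE 0.18, adjusted p = 0.192, limma), and without miR-709 C and D it was -0.87 and called (adjusted p = 0.0118, limma). Leaving out the miR-709 arrays nearest the Cel-239b level enlarges the difference by construction. Abcc1 was called in only this 1 of 20 alternatives. Asgr2, a subunit of the hepatocyte receptor for desialylated plasma proteins, had a difference of 0.11, Cblif, the gastric intrinsic factor and one of the dim ones, had one of -0.09, and the 6 others, which include the transcobalamin receptor gene Cd320, lay between -0.02 and 0.07.

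Of 11 genes of propionate and valine breakdown and nearby steps, 1 was called higher and 0 lower by limma. Over all genes the shares were 1.81% higher and 1.47% lower. In this list 4 genes had an unadjusted p under 0.05 (limma), against 15.0% of all genes. These were Aldh6a1, Pccb, Acsf3 and Suclg2, a succinyl-CoA ligase gene. By the methods' t-test at its unadjusted threshold 1 passed, against 2.81% of all genes higher and 1.90% lower. The median log2 fold change of the list was 0.10. The gene called was Aldh6a1, the methylmalonate semialdehyde dehydrogenase of valine breakdown, which yields propionyl-CoA. It had signals of 8.63, 8.60, 8.49 and 8.44 in miR-709-treated cells, against 7.96, 8.12 and 8.17 in Cel-239b-treated cells. All miR-709 arrays were above all Cel-239b arrays, and the log2 fold change was 0.46 (SE 0.07, adjusted p = 0.00994, limma). The call was lost with the methods' t-test (adjusted p = 0.0859), with the array letter as a block (adjusted p = 0.0814, limma) and without miR-709 C and D (adjusted p = 0.0614, limma). Hibch, an earlier enzyme of valine breakdown, had a difference of 0.18, Pccb, a subunit of propionyl-CoA carboxylase, one of 0.17, and Acsf3, a mitochondrial malonyl-CoA and methylmalonyl-CoA synthetase, one of 0.17. The 7 others, Mcee and the succinyl-CoA ligase genes among them, lay between -0.13 and 0.14.

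Of 12 tested genes of the methionine and folate cycles, 0 were called in either direction by limma, 2 had an unadjusted p under 0.05, against 15.0% of all genes, and 0 passed the methods' t-test at its unadjusted threshold; the median was 0.03. Some other genes of these cycles were not analysed here. Those 2 genes were Bhmt and Bhmt2, enzymes that remake methionine without cobalamin. Bhmt, the betaine-dependent one, had signals of 9.74, 9.87, 9.49 and 9.59 in miR-709-treated cells, against 9.13, 9.01 and 9.41 in Cel-239b-treated cells. The groups did not overlap, with miR-709 C only just above Cel-239b D. The log2 fold change was 0.49 (SE 0.11, adjusted p = 0.055, limma). The adjusted p ran from 0.0205 to 0.273 over the alternatives and passed the threshold in 5 of 20. The 3 probe sets annotated to Bhmt gave 0.23, 0.45 and 0.49. The one at 0.23 read between 4.42 and 4.99, below the array medians of 5.04 to 5.07, so its difference says little. Bhmt2, a close relative of Bhmt, had a difference of 0.30 (SE 0.09, adjusted p = 0.154, limma), and cross-hybridization between these relatives was not tested. Gnmt, which consumes S-adenosylmethionine, had a difference of 0.13, and the 9 others lay between -0.13 and 0.12.

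Of 7 tested genes in a list of regulators of Mmachc, glutathione metabolism and the neighbouring Prdx1 described above, 0 were called by limma, 4 had an unadjusted p under 0.05, against 15.0% of all genes, and 0 passed the methods' t-test at its unadjusted threshold, with a median of 0.04. Hcfc1, the transcriptional cofactor that acts on the Mmachc promoter, had signals of 8.27, 8.32, 8.28 and 8.30 in miR-709-treated cells, against 8.78, 8.67 and 8.44 in Cel-239b-treated cells. The miR-709 arrays were nearly level and all below the Cel-239b arrays, and the log2 fold change was -0.34 (SE 0.08, adjusted p = 0.0583, limma). The adjusted p ran from 0.013 to 0.314 over the alternatives and passed the threshold in 7 of 20. Gsr, glutathione reductase, had a difference of 0.35 (SE 0.09, adjusted p = 0.0893, limma) and Gss, glutathione synthetase, one of 0.32 (SE 0.08, adjusted p = 0.0872, limma). Both were highest on miR-709 C and D. Without those arrays the difference was 0.22 for Gsr (adjusted p = 0.281, limma) and 0.21 for Gss (adjusted p = 0.355, limma). Mmachc uses glutathione to process alkylated cobalamins. The 4 others, with the DNA-binding factor Thap11 among them, lay between -0.01 and 0.22, and Zfp143 was not analysed here. Of the glutathione genes among them, Gclc had the 0.22 and an unadjusted p under 0.05 (limma), and Gclm had 0.02.

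**Figure D4:**
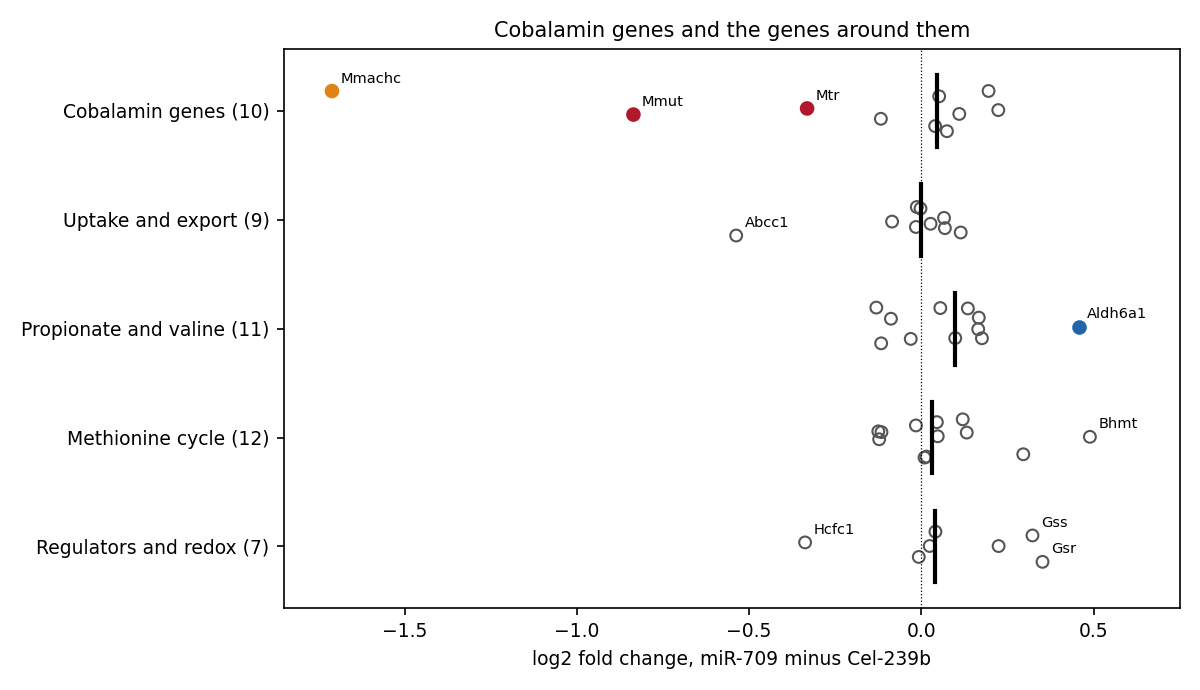
log2 fold change, miR-709 minus Cel-239b (horizontal axis), of each gene in the cobalamin list and in 4 lists around it, with the number of genes tested in brackets and the list median as a vertical bar; vertical scatter within a row has no meaning. Filled points had an adjusted p below 0.05 over all genes (red lower, blue higher; orange, Mmachc, listed for its decrease), and the list medians lay between -0.00 and 0.10.

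Across the 7 arrays the other genes of the pathway followed Mmachc to different degrees, and since the arrays fall into 2 groups these correlations mostly restate the difference between the groups. Pearson's r with Mmachc was 0.96 for Mtr, 0.93 for Mmut and -0.94 for Lmbrd1, and it lay between -0.51 and 0.31 for the 6 others. Among 173 genes whose log2 signal averaged 5 or more and spanned 1 or more over the arrays, the 5 with the highest r were Rab11b, Mrpl17, Plin3, Mob3a and Plaur, with r from 0.991 to 0.996. Rab11b, a small GTPase of endosome recycling, came first. Its signals were 8.09, 7.83, 7.29 and 7.32 on miR-709 A to D, against 9.51, 9.75 and 9.82 on Cel-239b B to D. As for Mmachc, C and D were the lowest arrays and Cel-239b B the lowest of its group. The log2 fold changes of these genes were -2.06 for Rab11b, -0.85 for Mrpl17, a mitochondrial ribosomal protein, -1.32 for Plin3, a lipid droplet coat protein, -1.01 for Mob3a, a kinase adaptor of the MOB family, and -0.76 for Plaur, the urokinase receptor.

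The labelled cell type was checked with its markers. The albumin gene Alb averaged 13.46 in miR-709-treated cells and 13.49 in Cel-239b-treated cells, and the plasma protein genes Apoa1 and Ttr averaged 13.08 and 12.92 in miR-709-treated cells, against 13.05 and 12.91 in Cel-239b-treated cells. Of 9 tested hepatocyte markers 3 were called higher (Cps1 by 0.68, Tat by 0.62 and Hnf4a by 0.57 on the log2 scale) and 0 lower, against 1.81% of all genes higher. The dimmest of the 9 were Fabp1, which averaged 6.89 in miR-709-treated cells and 6.92 in Cel-239b-treated cells, and Pck1, at 5.99 and 5.76. Of markers of other liver cells, 0 of 8 Kupffer cell and leukocyte genes, 0 of 7 endothelial genes and 0 of 8 stellate cell genes were called, and all but Cd68 and 1 stellate gene averaged below 6. Contractile genes of activated stellate cells and myofibroblasts were added after their values were known, so they are given as a description without a test. The log2 fold changes were -1.34 for Acta2, -1.25 for Tagln, -1.24 for Cnn1 and -0.71 for Myl9. Their mean relative to Cel-239b was -0.86, -1.05, -1.24 and -1.38 on miR-709 A to D, against 0.06, -0.03 and -0.04 on Cel-239b B to D. Of 5 bile duct cell markers, 1 was called lower and 0 higher, against 1.47% of all genes lower and 1.81% higher. The gene called was Krt19, which averaged 8.35 in miR-709-treated cells and 9.58 in Cel-239b-treated cells (log2 fold change -1.23, adjusted p = 0.0377, limma). The mean of these 5 relative to Cel-239b was -0.23, -0.21, -0.50 and -0.52 on miR-709 A to D, and the part of these genes and of the contractile genes in the Mmachc, Mmut and Mtr values was not tested.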

How the data were processed

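The authors summarised the scanned arrays by RMA in Partek and deposited log2 signals per probe set, in which background correction and quantile normalization had already been applied; the versions are not given in the sources used here. The table held 28853 probe sets, of which 21789 had 1 gene symbol in the platform annotation, 1621 several and 5443 none. Symbols were updated through gene numbers to RefSeq (21698 probe sets matched). A gene with several probe sets (999 genes) was represented by the brightest, which left 19938 genes, with no filter on low signals. Signals ran from 1.92 to 14.08, array medians from 5.04 to 5.07, and correlations between arrays from 0.997 to 0.998 within a treatment and from 0.995 to 0.996 between treatments; no 2 arrays held identical values. The number of arrays limits the precision: the median SE of a log2 fold change was 0.08.

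Groups were compared with limma 3.58.1 in R 4.3.3 (lmFit and eBayes, 2-sided, no block) over all genes, with Benjamini-Hochberg adjustment over all genes. The methods' t-test, a 1-way ANOVA over 7 arrays, was run on the same values. It follows the paper's description of the test, but its p for Mmachc differed from the one the paper prints. Its gene counts were lower than the paper's and were over fewer features than the paper describes. The genes, lists and alternatives were chosen with earlier results of these data known. Named were the 10 genes, the genes called and up to 3 others of largest change in each list, the neighbours of Mmachc, and the 5 genes most like it. The alternatives were a variance trend, other handling of probe sets, signal filters, further normalization, array weights, the array letter as a block, and leaving out arrays. Fits were tested on simulated data. Some genes of the lists were not analysed here.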

Additional observations from a re-analysis of the deposited data

Results flagged for a closer look

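Among 30 genes checked for an array standing apart within the 4 miR-709 arrays, 2 had one, and chance alone marks about 1 in 20 groups. The Mmut signal was highest in miR-709 C, at 7.38, while the other 3 arrays lay at 7.29 and 7.30; the gap was 0.889 of the group's range (above Dixon's critical value for 4 arrays at 95%), and the whole range was far smaller than the difference from the Cel-239b arrays. The Gnmt signal was highest in miR-709 B, at 8.30, against 8.15 to 8.17 on the other miR-709 arrays, a gap of 0.867 of the range.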

How the results depend on the processing

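Mmachc and Mmut kept their direction in all 20 alternatives and Mmut its call in each. The number of the 10 genes called lower was 3, which includes Mmachc, listed for its decrease. Among the 9 others it was 2, Mmut and Mtr. The count over the 10 was 1 with the methods' t-test as run here, where neither Mmachc nor Mtr passed after adjustment. It was 2 to 3 when 1 array was left out, since Mtr lost its call without any 1 array other than miR-709 A. Over all genes, 293 were called lower and 361 higher. The counts were 113 lower and 113 higher with the methods' t-test, 92 lower and 76 higher without miR-709 C and D, and 181 to 244 lower and 180 to 294 higher when 1 array was left out; 555 were higher when genes averaging under 6 on the log2 scale were left out. Fewer samples or fewer genes tested enter these by construction.

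In the lists, 1 uptake gene (Abcc1) was called lower without miR-709 C and D, the miR-709 arrays nearest the Cel-239b level for that gene. The propionate gene called higher (Aldh6a1) was lost, leaving 0, with the methods' t-test, with the letter as a block and without miR-709 C and D. In the methionine list 1 gene was called higher with a variance trend, with a minimum mean signal of 5 or 6 and with median centring, and 0 to 1 when 1 array was left out. In the list of regulators 1 gene was called lower with a variance trend, with a minimum of 5 or 6, with further quantile normalization, cyclic loess or array weights, and 0 to 1 when 1 array was left out, while 2 were called higher with a minimum of 5 or 6. Differences close to 0 changed sign in some settings: Abcd4 to -0.01 without Cel-239b B (range over arrays left out -0.01 to 0.10), Mmab to -0.02 with the letter as a block and without Cel-239b B or miR-709 A (-0.02 to 0.10), Mtrr to -0.0383 without miR-709 C and D, and Prdx1 to -0.0005 with cyclic loess, -0.0175 without Cel-239b C (-0.0175 to 0.10) and -0.0617 without miR-709 C and D. The cause was not tested.

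Arrays of both groups carry the letters B, C and D. The deviations of same-lettered arrays from their group means correlated at 0.02 for B, 0.02 for C and 0.05 for D. Among lettered pairs, miR-709 C and D and Cel-239b B and D correlated best with their own letter, and miR-709 B and Cel-239b C did not. Deviations from means of so few arrays cannot settle whether a letter marks a pair. The main fit used no block. With the letter as a replicate block, to which miR-709 A adds no pair, 221 genes were called lower and 180 higher. Of the 10 genes 2 were lower, Mmut and Mmachc, the latter listed for its decrease. With the letter as a random block the counts were 294 and 365, and 3 of the 10 genes, again with Mmachc.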
